A study of Homo sapiens with 3 samples.

Results

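The genes described here encode transporters and channels, grouped as ion and solute transport genes of the melanosome, the organelle in which melanocytes make melanin. They are OCA2, SLC45A2, SLC24A5, SLC24A4, TPCN2, ATP7A, MFSD12 and TRPM1, chosen by symbol, and each of the 8 matched 1 of the 36601 genes counted in every library. Induced melanocytes from human pluripotent stem cells were profiled by droplet single-cell RNA sequencing at 3 time points with 1 library each, day 23 (D23), day 32 (D32) and day 44 (D44). No genotype separates the libraries, and the labels give 1 culture protocol for all. Embryoid bodies were moved to a melanocyte medium with Wnt3a-conditioned medium, stem cell factor, endothelin-3, cholera toxin, a phorbol ester, basic fibroblast growth factor and dexamethasone, then plated on fibronectin and passaged in medium with serum and without the phorbol ester, and cells were frozen before library preparation. The stage of this schedule at which each library was taken is not given in the sources used here, so plating, serum and phorbol ester may differ between days. The labels disagree on the starting cells, which are induced pluripotent in the titles but H9, an established embryonic line, in other fields. D32 and D44 shared an induction and a sequencing batch, whereas D23 had its own of each, so that day, induction and batch cannot be told apart between D23 and the later libraries.

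As background, tyrosinase (TYR) and its relatives TYRP1 and DCT carry out the chemistry of melanin synthesis, and tyrosinase works poorly at acid pH and without copper. OCA2 is an anion channel and SLC45A2 a sugar and proton transporter of the melanosome membrane, and both are known for keeping the melanosome lumen near neutral. TPCN2 is an endolysosomal cation channel that also sits in melanosomes, SLC24A5 and SLC24A4 are potassium-dependent sodium/calcium exchangers, ATP7A pumps copper into the secretory pathway and melanosomes, MFSD12 imports cysteine into melanosomes and lysosomes, and TRPM1 (melastatin) is a cation channel of melanocytes and retinal bipolar cells. Loss of OCA2, SLC45A2 or SLC24A5 causes forms of oculocutaneous albinism, and TRPM1, like the tyrosinase family, is a known target of the melanocyte transcription factor MITF.

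After the cell filter given in the study's methods, 3796, 6023 and 5811 cells of D23, D32 and D44 remained, with medians of 12574, 36375 and 42940 unique molecular identifiers (UMIs) per cell. Libraries shared 9 to 28 cell barcodes in pairs. Cells fell into 7 clusters made without the genes described here; 4 were melanocyte-like, 1 mesenchymal-like (KRT8, COL1A1 and LUM among its leading genes) and 2 neural-like (NEFM, MSX2 and CNTNAP2 in 1, CRABP1 and DCX in the other). A melanocyte-like cell was kept only if its melanocyte marker UMIs were at least 3 times its mesenchymal and its neural ones, and a mesenchymal-like or neural-like cell only if its own marker UMIs were at least 3 times the melanocyte ones, a limit added after the clusters had been seen because D44 cells rich in melanocyte markers had entered the other clusters. This left 378 cells in no class and gave 2368, 5506 and 5689 melanocyte-like cells, 344, 270 and 13 mesenchymal-like cells, and 919, 134 and 9 neural-like cells. All 10 melanocyte markers were above 1 CPM (UMIs scaled to a common total) in melanocyte-like cells of each library, with summed levels of 3839, 8912 and 9344 CPM against 129 to 369 CPM in the other classes. Neural-like cells also held mesenchymal markers, which the limit did not compare with neural ones. In D23 and D32 these summed to 2967 and 1915 CPM. Neural markers summed to 11917 and 8358 CPM there, of which CRABP1 made 7107 and 6463 CPM. In the neural-like cluster led by NEFM the mean log2 level was 6.98 for neural and 6.67 for mesenchymal markers. The 9 D44 neural-like cells had more mesenchymal than neural marker UMIs and were not tested. Retinal pigment epithelium markers, another pigment cell type that expresses several of these genes, summed to only 8.64 to 15.8 CPM in melanocyte-like cells.

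Gene positions were taken from GENCODE v44 on GRCh38, the build of the files. OCA2 lies at chr15:27754875-28099315, TRPM1 at chr15:31001065-31161160, SLC45A2 at chr5:33944623-33984693 and MFSD12 at chr19:3538261-3574290, each on the minus strand. SLC24A5 lies at chr15:48120990-48142672, SLC24A4 at chr14:92322581-92501481, TPCN2 at chr11:69048932-69136316 and ATP7A at chrX:77910690-78050395, each on the plus strand. Exons of SLC24A5 share 1574 bases with MYEF2 on the opposite strand, those of ATP7A share 689 bases with PGAM4, and those of MFSD12 share 565 with the lncRNA ENSG00000267436, 369 with HMG20B, 256 with TEKTIP1 and 74 with FZR1. TRPM1 exons share 334 bases with the opposite lncRNA ENSG00000259720, and ATP7A exons 97 with PGK1 on the same strand. Whether reads were counted by strand is not given in the sources used here. The levels of SLC24A5, ATP7A, MFSD12 and TRPM1 may therefore hold some reads of the overlapping genes. TPCN2 exons share 1627 bases with the protein-coding gene ENSG00000287725 on the same strand, and ATP7A exons share 382 with the pseudogene C4orf46P2. Neither is among the genes counted, so the TPCN2 and ATP7A levels may hold their reads whatever the strand setting. SLC24A4 overlaps no other annotated gene.

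The upstream sequences of the genes were set beside that of TYR because the tyrosinase family serves as the timing reference below. The letters CATGTG (an E-box of the kind bound by MITF; CACATG on the other strand) were searched in the 250 bases before each RefSeq start. 7 of the 8 genes had a window in the table used; SLC45A2 had none. OCA2, SLC24A5 and TRPM1 held the E-box, the last before both of its starts, and so did all 3 tyrosinase family genes (DCT before its inner start only), against 9.42% of the 35116 windows in the table. The windows of SLC24A4, TPCN2, ATP7A and MFSD12 did not hold it, and that of ATP7A held the related E-box CACGTG, found in 6.34% of windows. The 5 sequences below (RefSeq, GRCh38.p14, 5′ to 3′ on the gene's strand, ending at the base before the start) show where the E-box lies, in capitals. It starts 15 bases before the SLC24A5 start, 153 before that of OCA2, 8 and 56 before those of TRPM1, and 104 and 12 before that of TYR. A match is a run of letters and was not tested for binding.
OCA2 (chr15:28099316-28099565, minus strand): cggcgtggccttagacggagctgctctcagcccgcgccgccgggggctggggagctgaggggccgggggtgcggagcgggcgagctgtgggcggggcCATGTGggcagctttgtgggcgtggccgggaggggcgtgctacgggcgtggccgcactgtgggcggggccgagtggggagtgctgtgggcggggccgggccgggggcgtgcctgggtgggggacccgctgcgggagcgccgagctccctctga
SLC24A5 (chr15:48120740-48120989, plus strand): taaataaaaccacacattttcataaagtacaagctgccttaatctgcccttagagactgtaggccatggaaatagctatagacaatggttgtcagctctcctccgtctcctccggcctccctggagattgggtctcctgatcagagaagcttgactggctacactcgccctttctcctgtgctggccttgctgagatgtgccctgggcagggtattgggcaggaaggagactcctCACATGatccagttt
TRPM1, longer transcript (chr15:31161161-31161410, minus strand): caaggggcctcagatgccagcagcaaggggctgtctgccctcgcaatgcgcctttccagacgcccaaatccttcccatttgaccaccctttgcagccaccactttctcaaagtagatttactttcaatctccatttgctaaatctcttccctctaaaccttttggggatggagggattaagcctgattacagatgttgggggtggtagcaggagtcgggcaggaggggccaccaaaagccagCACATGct
TRPM1, inner start (chr15:31101726-31101975, minus strand): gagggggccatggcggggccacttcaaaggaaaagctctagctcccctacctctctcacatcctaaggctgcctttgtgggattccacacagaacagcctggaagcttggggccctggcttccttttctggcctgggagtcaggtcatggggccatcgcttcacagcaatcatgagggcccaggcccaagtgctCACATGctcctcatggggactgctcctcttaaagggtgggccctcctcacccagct
TYR (chr11:89177625-89177874, plus strand): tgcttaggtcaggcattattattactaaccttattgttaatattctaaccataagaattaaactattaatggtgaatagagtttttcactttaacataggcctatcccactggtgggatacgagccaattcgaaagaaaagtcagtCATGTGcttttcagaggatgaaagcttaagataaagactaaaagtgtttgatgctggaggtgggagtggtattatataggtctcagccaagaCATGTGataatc

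The first comparison asked in which cells of the culture the transport genes were expressed. In melanocyte-like cells all 8 were higher than in mesenchymal-like cells, and 7 of 8 were higher than in neural-like cells, by edgeR's quasi-likelihood test on sums of UMIs over each class of a library, with libraries as blocks and a threshold of 0.05 on the adjusted p. The replicates of this test are the libraries, of which 3 hold mesenchymal-like and 2 hold neural-like sums, and since D32 and D44 come from 1 induction the p-values measure only the spread between these libraries. For comparison, 9.63% of the 15075 genes tested were higher in melanocyte-like than in mesenchymal-like cells and 9.13% were higher than in neural-like cells. The median log2 fold change of the 8 genes was 4.89 over mesenchymal-like cells and 4.71 over neural-like cells, beside medians of 0.08 and 0.09 over all genes tested. Below, levels are CPM of the summed UMIs, which scale each sum to a common total, in the order D23, D32 and D44, and their 95% intervals are exact Poisson intervals that cover counting error only.

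MFSD12, the cysteine importer, stood at 849, 1846 and 2206 CPM in melanocyte-like cells, at 70.6, 45.9 and 138 CPM in mesenchymal-like cells and at 42.8 and 73.7 CPM in the neural-like cells of D23 and D32. It was higher in melanocyte-like cells by a log2 fold change of 4.38 ± 0.35 (SE) over mesenchymal-like cells (edgeR adjusted p = 0.000401) and 4.64 ± 0.42 over neural-like cells (edgeR adjusted p = 0.000688). On counts thinned to 5000 UMIs per cell, it was found in 97.8%, 99.9% and 99.9% of melanocyte-like cells, and in 14.9% to 53.9% of the cells of the other tested sums. The lowest melanocyte-like library was above the highest library of either other class. In the tested sums the same held for each of the other transport genes except OCA2. The share of all genes for which it holds was not counted.

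TRPM1 stood at 262, 368 and 381 CPM in melanocyte-like cells and between 5.55 and 7.87 CPM in the other tested sums. Its log2 fold changes were 5.63 ± 0.27 over mesenchymal-like cells (edgeR adjusted p = 0.00012) and 5.66 ± 0.31 over neural-like cells (edgeR adjusted p = 0.000197). Of the 8 genes it had the largest fitted fold change in both comparisons. SLC24A5 stood at 59.3, 180.3 and 190.5 CPM in melanocyte-like cells, against 3.01, 1.95 and 9.48 CPM in mesenchymal-like cells, the last from 4 UMIs in 13 cells, and 1.66 and 4.42 CPM in neural-like cells. It was higher by 5.39 ± 0.46 and 5.38 ± 0.50 on the log2 scale (edgeR adjusted p = 0.000468 and 0.000727).

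SLC45A2 stood at 11.2, 20.1 and 14.0 CPM in melanocyte-like cells. The other classes of D23 and D32 held 1 to 8 UMIs of it, or 0.205 to 0.697 CPM, and its log2 fold changes were 5.45 ± 0.64 and 4.78 ± 0.63 (edgeR adjusted p = 0.00166 and 0.0025). SLC24A4 stood at 4.40, 7.89 and 16.9 CPM in melanocyte-like cells, and its counts elsewhere were near the floor, with 1 and 2 UMIs in the mesenchymal-like and neural-like cells of D23 and none in those of D32. In D32 the melanocyte-like level was therefore at least 25.6-fold higher than in mesenchymal-like cells, taking 3 UMIs as the limit that a count of 0 allows in that sum. In D23 the ratio to mesenchymal-like cells was 19.0, with an interval of 3.36 to 756. SLC24A4 passed the test in both comparisons (edgeR adjusted p = 0.00617 and 0.00801), but over neural-like cells not with uncorrected clusters (edgeR adjusted p = 0.0542).

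TPCN2 and ATP7A were also expressed outside the pigment cells. TPCN2 stood at 15.6, 25.3 and 27.9 CPM in melanocyte-like cells, and its mesenchymal-like and neural-like levels were 24.4% to 31.5% of these in D23 and D32. ATP7A stood at 82.8, 42.0 and 47.5 CPM in melanocyte-like cells, and its levels in the other classes of D23 and D32 were 27.4% to 40.7% of these. For MFSD12, TRPM1, SLC24A5, SLC45A2 and SLC24A4 the same share in D23 and D32 was 0% to 8.31%. In the 13 mesenchymal-like cells of D44 it was 34.0% for TPCN2, 25.0% for ATP7A and at most 14.0% for those genes (SLC24A4, from 1 UMI). TPCN2 was higher in melanocyte-like cells by 1.95 ± 0.22 on the log2 scale over mesenchymal-like cells and 1.95 ± 0.24 over neural-like cells (edgeR adjusted p = 0.00141 and 0.00197), and ATP7A was higher by 1.74 ± 0.20 and 1.54 ± 0.22 (edgeR adjusted p = 0.00143 and 0.00343).

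OCA2 differed from the other 7 genes in that its D23 level did not separate the classes. In D23 it stood at 1.04 CPM in melanocyte-like cells (33 UMIs), 0.694 CPM in mesenchymal-like cells (3 UMIs) and 0.958 CPM in neural-like cells (11 UMIs), and the ratio of melanocyte-like to neural-like cells was 1.08 with an interval of 0.534 to 2.37. In D32 it stood at 18.9 CPM in melanocyte-like cells against 0.514 and 1.18 CPM in the other classes, ratios of 36.8 (15.8 to 114) and 16.1 (6.26 to 58.9). In D44 it reached 60.8 CPM in melanocyte-like cells, with no UMI in 13 mesenchymal-like cells. A higher level in melanocyte-like cells was thus measured in D32 and D44 but not detectable in D23. Over the libraries its log2 fold change was 4.35 ± 1.02 over mesenchymal-like cells (edgeR adjusted p = 0.0241) and 2.29 ± 1.01 over neural-like cells (edgeR adjusted p = 0.153). Without D44 the first call was lost (log2 fold change 3.75, edgeR adjusted p = 0.141). Without D23 the log2 fold change over neural-like cells was 4.20. That fit held only 1 neural-like sum, the 134 cells of D32 with 4 OCA2 UMIs, so the class had no replicate there. The mesenchymal-like value of OCA2 was 5.49 without D23 and 3.32 without D32, and both passed. The plot of levels by class shows this pattern beside the other genes.

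The size of these fold changes depends on the marker limit set on cells. With all cells of a cluster kept, the log2 fold changes over mesenchymal-like and neural-like cells were 2.77 and 3.02 for TRPM1, 2.65 and 3.00 for SLC24A5 and 2.59 and 2.58 for SLC45A2, all past the test. For MFSD12 they were 2.12 and 2.29 (edgeR adjusted p = 0.0619 and 0.0493) and for SLC24A4 1.72 and 1.49 (edgeR adjusted p = 0.267 and 0.304), so that MFSD12 lost 1 call and SLC24A4 both. TPCN2 and ATP7A moved less, to between 1.21 and 1.43, and OCA2 was at 1.88 and 1.65 (edgeR adjusted p = 0.0377 and 0.0478). Leaving out D23 or D32 moved SLC45A2 to between 4.09 and 6.68, SLC24A5 over mesenchymal-like cells to 6.06 and 4.43, and SLC24A4 over mesenchymal-like cells to 6.25 and 3.76 (6.36 without D44), with each call kept. Over neural-like cells SLC24A4 was at 4.62 without D32, and without D23 the only neural-like sum tested had no UMI.

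**Figure D1:**
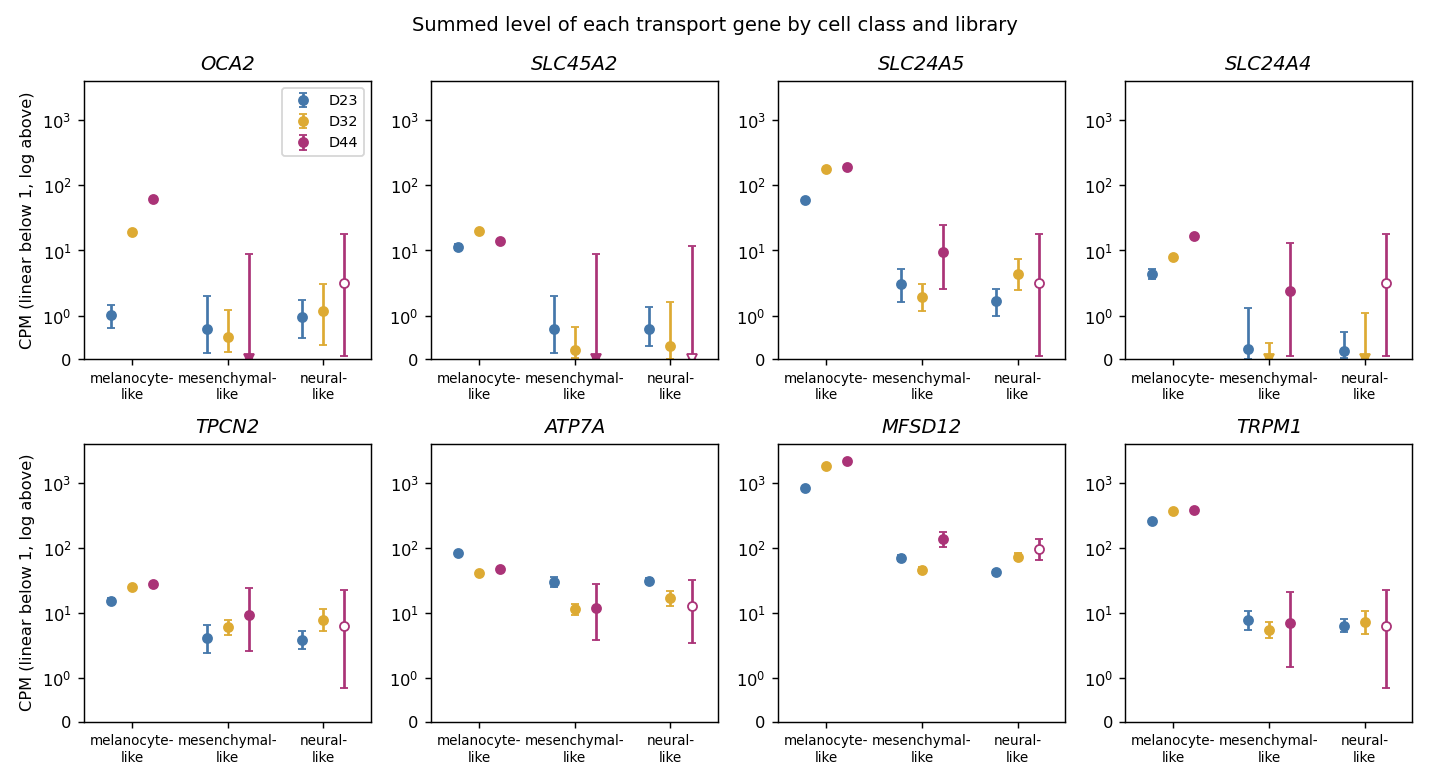
Level of the 8 transport genes (CPM of summed UMIs, linear below 1 and logarithmic above) in melanocyte-like, mesenchymal-like and neural-like cells of D23 (blue), D32 (yellow) and D44 (purple). Bars are 95% Poisson intervals, triangles are sums with no UMI, and open symbols mark the 9 D44 neural-like cells, which were not tested. MFSD12, TRPM1 and SLC24A5 in melanocyte-like cells lie far above the other classes in all 3 libraries, whereas OCA2 does so in D32 and D44 and overlaps them in D23.

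The second comparison addressed timing: how the level of each gene in melanocyte-like cells moved from library to library, beside the tyrosinase family. With 1 library per day there is no replicate check and no test. Ratios of CPM are given with exact conditional binomial intervals for counting error, and a ratio of at least 2 is counted as higher. Between D32 and D44, which share an induction and a batch, 2 of the 8 genes were at least 2-fold higher in D44, OCA2 and SLC24A4, while 1.25% of the 12438 genes with a mean of at least 1 CPM were. Between D23 and D32, 3 of the 8 were at least 2-fold higher in D32, OCA2, SLC24A5 and MFSD12, beside 4.6% of 12897 genes.

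OCA2 moved most. It was 18.3-fold higher in D32 than in D23 (13.0 to 26.6) and 3.21-fold higher in D44 than in D32 (3.11 to 3.33). Its D23 level was 1.70% of its D44 level and its D32 level 31.1%, whereas TYRP1, the most delayed of the tyrosinase family by this measure, stood at 203, 1305 and 2115 CPM, or 9.58% and 61.7% of D44. TYR stood at 49.6, 245 and 347 CPM, or 14.3% and 70.7% of D44, and DCT at 969, 1496 and 2090 CPM (46.4% and 71.6%). OCA2 was thus further from its D44 level than each of these 3 genes in D23 and in D32. The share of melanocyte-like cells with an OCA2 UMI on thinned counts was 0.213% in D23, 7.70% in D32 and 23.8% in D44. In the mesenchymal-like and neural-like cells of D23 and D32, which define the background, the same share was 0.247% to 0.746%, so the D23 share is at background.

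SLC24A4 was 2.14-fold higher in D44 than in D32 (2.02 to 2.26) and 1.79-fold higher in D32 than in D23 (1.51 to 2.15). Its D23 and D32 levels were 26.0% and 46.7% of the D44 level. As for OCA2, the D32 share was below that of each tyrosinase family gene. In cells with no UMI of the proliferation genes MKI67, TOP2A, CDK1 and CCNB1, the D44 to D32 ratio was 1.96 and no longer reached 2.

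SLC24A5 and MFSD12 were higher in D32 than in D23 and nearly level from there to D44. SLC24A5 was 3.04-fold higher in D32 than in D23 (2.90 to 3.19) and 1.06-fold higher in D44 than in D32 (1.04 to 1.07), so that 94.6% of its D44 level was present in D32. MFSD12 was 2.17-fold higher in D32 than in D23 (2.15 to 2.20) and 1.20-fold higher in D44 than in D32 (1.19 to 1.20). TPCN2 and TRPM1 moved less, by 1.62-fold (1.48 to 1.78) and 1.41-fold (1.38 to 1.44) to D32 and by 1.10-fold and 1.04-fold to D44. TRPM1 in D23 already stood at 68.6% of its D44 level, above the shares of all 3 tyrosinase family genes.

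SLC45A2 and ATP7A were each lower in the later library in 1 of the steps. SLC45A2 was 1.80-fold higher in D32 than in D23 (1.61 to 2.00) and then stood in D44 at 0.697 of the D32 level (0.667 to 0.728). It was the only one of the 8 with a lower level in D44 than in D32, and the tyrosinase family was 1.40- to 1.62-fold higher over the same step. ATP7A stood in D32 at 0.508 of its D23 level (0.486 to 0.530) and was 1.13-fold higher in D44 than in D32. Its other copper partners in the fixed list are given below.

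The size of the D23 to D32 ratios depends on the scaling. With total UMIs the median gene was at 0.907 and 593 genes were at least 2-fold higher in D32 against 1503 that were as much lower; with TMM factors over the melanocyte-like sums the median was at 1.18, a shift of 0.37 on the log2 scale, and the numbers were 1622 and 771. Under TMM SLC45A2, SLC24A4 and TPCN2 also passed 2-fold (2.33, 2.33 and 2.10), OCA2, SLC24A5 and MFSD12 stayed above it, and ATP7A was at 0.658. Relative to the median gene, which is the same under both, the ratios were 20.1 for OCA2, 3.35 for SLC24A5, 2.40 for MFSD12, 1.98 for SLC45A2, 1.98 for SLC24A4, 1.79 for TPCN2, 1.55 for TRPM1 and 0.560 for ATP7A. The D44 to D32 step moved by only 0.05 on the log2 scale between the scalings.

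**Figure D2:**
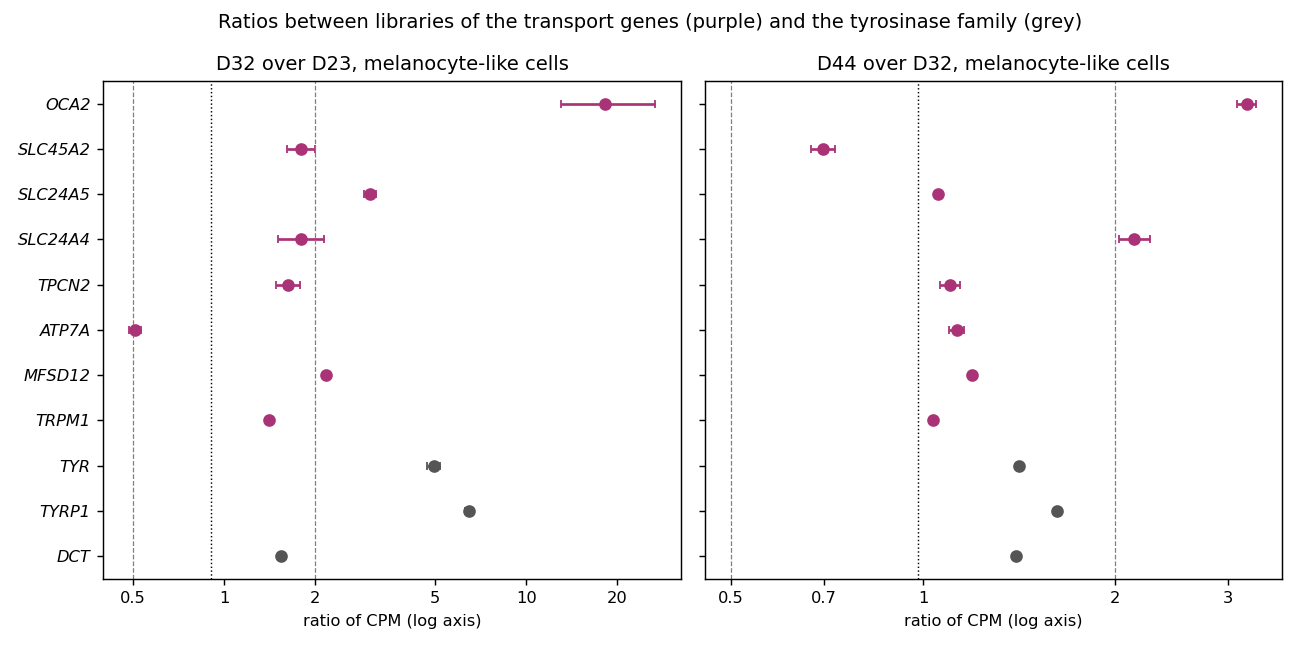
Ratio of CPM between libraries (log axes) in melanocyte-like cells for the 8 transport genes (purple) and the 3 tyrosinase family genes (grey). The left panel shows D32 over D23 and the right panel D44 over D32; bars are 95% counting intervals, dashed lines mark 2-fold in either direction and the dotted line the median gene. OCA2 lies furthest right in both panels, SLC45A2 lies left of 1 only in the right panel (0.697) and ATP7A only in the left (0.508).

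Timing was then examined inside each library, where day, induction and batch are the same for all cells. Melanocyte-like cells with at least 5000 UMIs were ranked by a maturation score, the mean log level of 10 other melanosome and pigment cell genes (PMEL, MLANA, GPNMB, GPR143, TSPAN10, CAPN3, RAB38, RAB27A, MLPH and CD63) on thinned counts, and cut into 5 bins of equal cell number. The score holds none of the 8 transport genes and none of the tyrosinase family. The median depth of the bins ran from 11914 to 13388 UMIs in D23, 34080 to 37722 in D32 and 41547 to 43337 in D44. It was lowest in the highest bin of each library. The share of cells with no UMI of the proliferation genes was higher in the upper bins. In the lowest and highest bins it was 23.7% and 45.9% in D23, 6.62% and 14.2% in D32, and 4.83% and 12.9% in D44. Of the 8 genes, SLC45A2, SLC24A5, TPCN2 and TRPM1 were at least 1.5-fold higher in the highest than in the lowest bin of every library, and OCA2 was in D32 and D44. Of all genes with a mean of at least 1 CPM over these bins, score genes left out, 8.02%, 5.21% and 7.89% were in D23, D32 and D44. In cells with no proliferation UMI the same 5 genes stayed past 1.5-fold in D32 and D44, with ratios of 1.55 to 3.79. SLC24A4, ATP7A and MFSD12 did not follow the score. No test was made, since cells of 1 library are not replicates.

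SLC45A2, SLC24A5 and TRPM1 were higher at every step up the score in all 3 libraries. SLC45A2 went from 6.41 to 17.8 CPM in D23, from 12.5 to 29.3 in D32 and from 8.91 to 22.1 in D44, ratios of 2.78, 2.35 and 2.49. SLC24A5 went from 35.5 to 85.9 CPM in D23, from 131 to 223 in D32 and from 127 to 249 in D44. The SLC24A5 ratios were 2.42 in D23 (2.07 to 2.83), 1.71 in D32 (1.65 to 1.77) and 1.96 in D44 (1.91 to 2.02), and so steepest in D23. TRPM1 was steeper in the later libraries: its ratio of highest to lowest bin was 1.69 in D23 (1.57 to 1.81), 2.07 in D32 (2.02 to 2.12) and 3.91 in D44 (3.82 to 4.01). In D44 TRPM1 went from 163 to 637 CPM. The lowest bin of D44 was thus below the lowest bins of D23 (199 CPM) and D32 (249.8 CPM), and its highest bin above all others.

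OCA2 was higher with the score in D32, from 9.72 to 29.0 CPM (ratio 2.98, 2.67 to 3.34), and in D44, where it stood at 31.0, 49.0, 61.6 and 68.9 CPM in the lower bins and 3.07-fold above the lowest (2.90 to 3.24) in the highest. In D23 each bin held 1 to 10 UMIs of it, and its ratio of 6.89 has an interval of 0.836 to 317, so no order along the score was detectable there. TPCN2 was 1.69-, 1.83- and 1.88-fold higher in the highest than in the lowest bin. The tyrosinase family was higher with the score in every library too, TYR by 6.98-fold in D23, 2.59-fold in D32 and 1.69-fold in D44, and DCT by 2.89-, 3.06- and 3.49-fold. TYRP1 went from 81.9 to 396 CPM in D23, from 914 to 1615 in D32 and from 1175 to 3095 in D44. TYR therefore had its steepest slope in D23, where OCA2 was at background. OCA2 was steeper than TYR in D32 (2.98 against 2.59) and in D44 (3.07 against 1.69). In D44 DCT was steeper than OCA2 (3.49).

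SLC24A4 ran the opposite way in D44. It stood at 26.3 CPM in the lowest bin and at 18.9, 16.4, 13.3 and 9.29 CPM in the next ones, a ratio of highest to lowest of 0.354 (0.318 to 0.393). In D32 it went from 6.50 to 8.62 CPM (1.33, 1.13 to 1.55), and in D23 it went from 4.62 to 3.77 CPM (0.815, 0.450 to 1.45). D44 was above D32 in each bin, by most in the lowest and by least in the highest, where the intervals of D32 (7.75 to 9.57 CPM) and D44 (8.47 to 10.2 CPM) overlapped. In those D44 cells mesenchymal markers summed to 87.2 CPM in the lowest bin and 64.3 CPM in the highest, and neural markers to 60.8 and 30.3 CPM. The sum of the 4 Schwann cell markers went from 67.4 to 113 CPM, but only 2 of them reached 1 CPM in the lowest bin and 1 in the highest. Over all D44 melanocyte-like cells MBP alone made 90.8 of their 93.0 CPM. The part of these values in the SLC24A4 pattern was not tested.

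MFSD12 and ATP7A were nearly flat. MFSD12 had ratios of highest to lowest bin of 1.13 in D23, 0.929 in D32 and 0.816 in D44, where it was lower at each step, from 2359 to 1924 CPM. ATP7A had ratios of 1.20, 0.780 and 0.893. These were small beside the slopes of the other genes, and both genes were near their full level in cells with the lowest score.

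**Figure D3:**
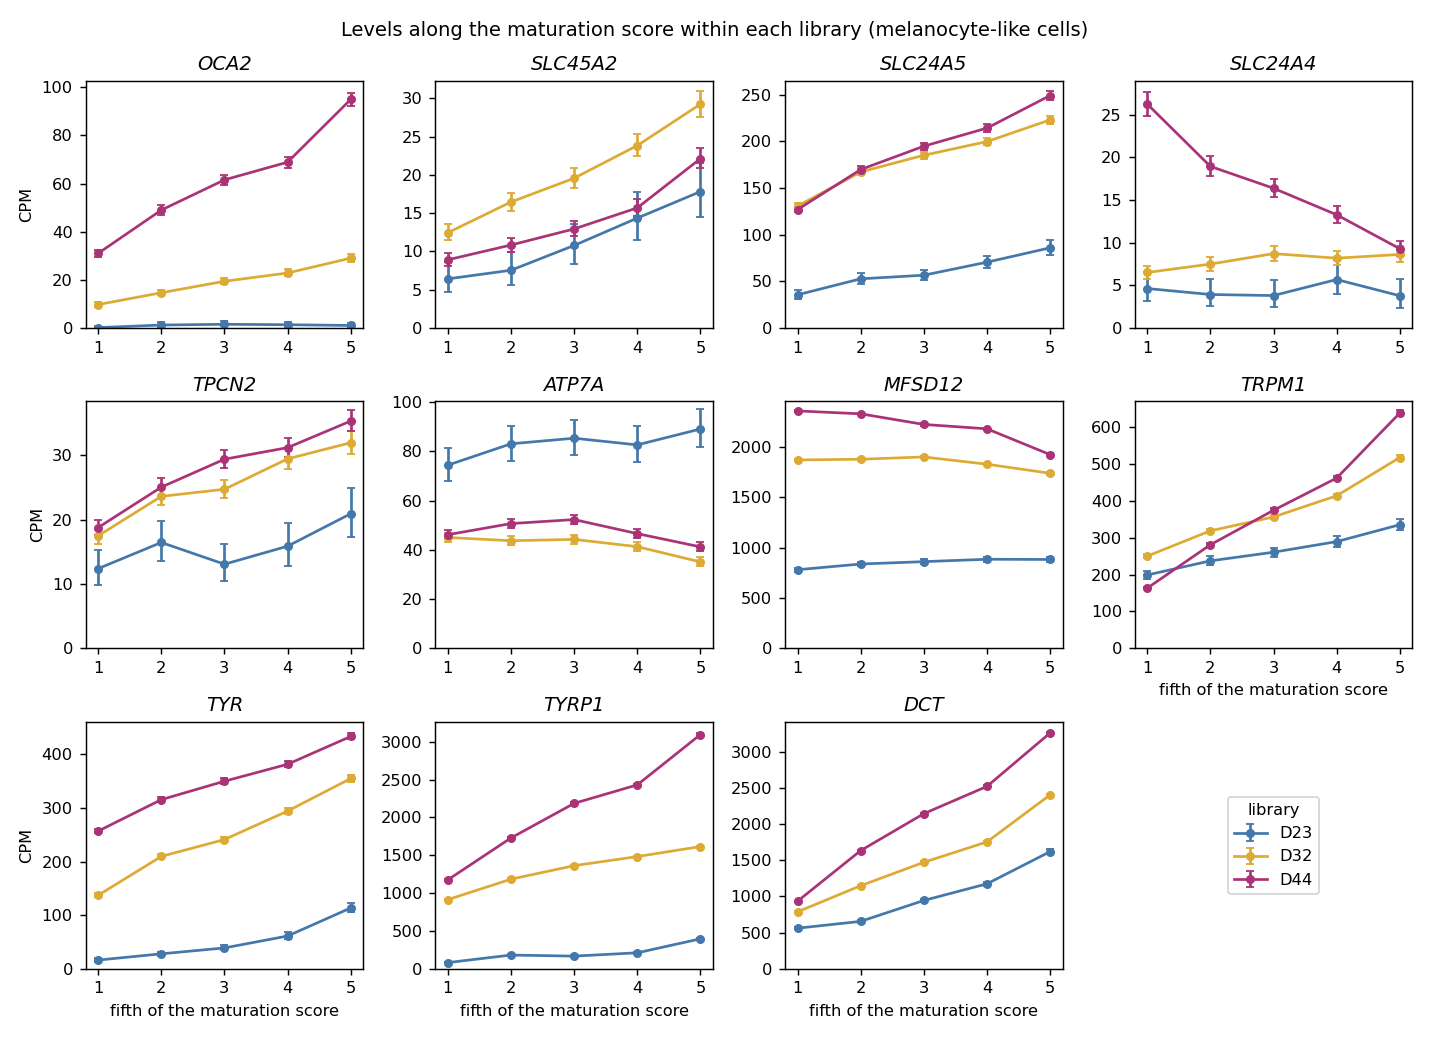
CPM (linear axes from 0) of the 8 transport genes and the 3 tyrosinase family genes in 5 bins of melanocyte-like cells ranked by the maturation score within D23 (blue), D32 (yellow) and D44 (purple). Bars are 95% Poisson intervals. SLC45A2, SLC24A5 and TRPM1 climb with the score in all 3 libraries and OCA2 in D32 and D44, SLC24A4 in D44 goes from 26.3 down to 9.29 CPM, and MFSD12 and ATP7A stay nearly level.

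Cells of D32 and D44 were also compared in bins with the same cut points of the score, to see whether a difference between the libraries remained among cells of equal score. OCA2 was higher in D44 in all 5 bins, by 2.93- to 4.46-fold. SLC45A2 was lower in D44 in all 5, at 0.599 to 0.795 of D32. SLC24A4 was 4.69-fold higher in the lowest bin (3.92 to 5.65) and 1.23-fold higher in the highest (1.08 to 1.39). TRPM1 crossed over: D44 was at 0.562 of D32 in the lowest bin and at 1.14 in the highest. SLC24A5 and TPCN2 stayed between 0.931 and 1.16 in every bin. Over all melanocyte-like cells their D44 to D32 ratios were 1.06 and 1.10, so for these the libraries differed little with or without equal score. The tyrosinase family was also higher in D44 in all 5 bins, TYR by 1.18- to 2.15-fold, TYRP1 by 1.18- to 1.80-fold and DCT by 1.12- to 1.37-fold. MFSD12 was higher in all 5 by 1.15- to 1.30-fold, and ATP7A lay between 0.983 and 1.20. D23 had only 52 and 11 cells in the upper 2 bins and was not compared.

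**Figure D4:**
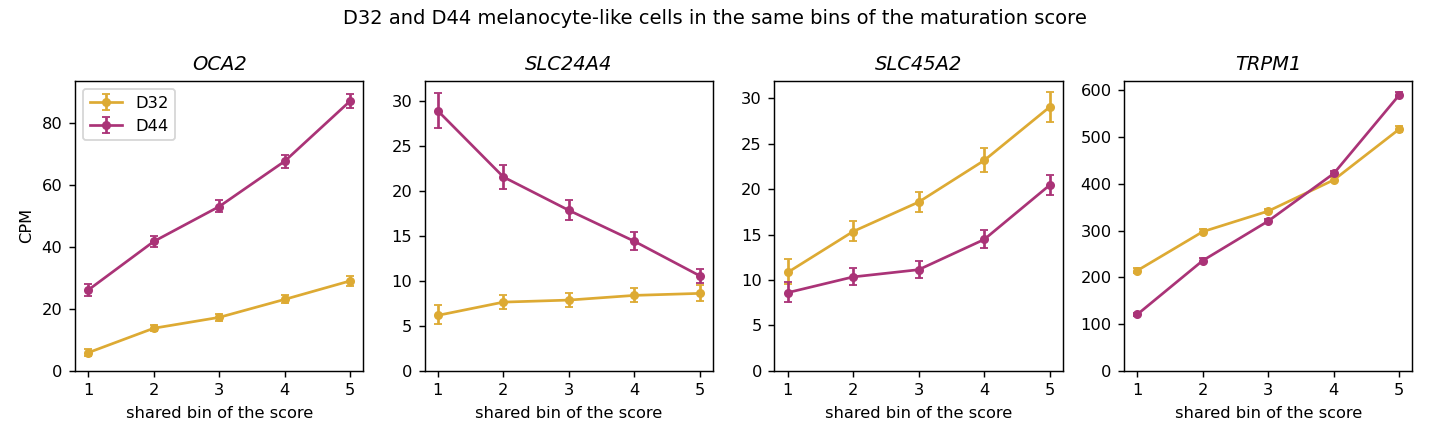
CPM of OCA2, SLC24A4, SLC45A2 and TRPM1 in D32 (yellow) and D44 (purple) melanocyte-like cells, in 5 bins with cut points of the maturation score shared by the libraries; bars are 95% Poisson intervals. D44 lies above D32 in every bin for OCA2 and SLC24A4 and below it for SLC45A2, and the TRPM1 lines cross.

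Of the 4 melanocyte-like clusters, 1 was led by mitotic genes such as PLK1 and UBE2C and 2 by genes of DNA replication. All 8 transport genes had UMIs in each of the 4, at levels that differed between the clusters. In D44, OCA2 stood at 74.4 CPM in the cluster led by PTGDS, at 56.3 and 49.1 CPM in the replicating clusters and at 46.7 CPM in the mitotic cluster. TRPM1 stood at 447, 380.2, 328 and 271 CPM in the same order and MFSD12 at 2269, 2228, 2189 and 2004 CPM. All 8 were lower in the mitotic cluster than in the PTGDS cluster in both D32 and D44, as were TYR, TYRP1 and DCT, while 52.4% and 51.0% of all genes were. In single cells on thinned counts, 24.7% of D44 cells with a TYR UMI and 20.8% of those without had an OCA2 UMI, and for DCT the shares were 24.6% and 10.1%. For MFSD12 they were 99.9% and 100%.

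Each gene's pattern over the 15 sums (3 libraries by 5 bins) was compared with that of 8841 genes by Pearson's r of log2(CPM + 1), as a description only, since the points share libraries and score. The 3 most alike were RPL11, SMUG1 and RPS7 for OCA2 (0.995 to 0.994), HNMT, VAMP8 and RNASEK for SLC45A2 (0.975 to 0.969), and PLXNC1, DPP4 and CABLES1 for SLC24A5 (0.996 to 0.994). They were UTP14A, USP53 and NABP2 for SLC24A4 (0.978 to 0.958), MET, ABHD6 and HIST3H2A for TPCN2 (0.976 to 0.971), and NFE2L1, PTPRG and ADARB1 for ATP7A (0.986 to 0.983). For MFSD12 they were CCT7, SLC39A3 and PIGU (0.997 to 0.995) and for TRPM1 MTURN, TRIM63 and RNLS (0.979 to 0.973). Among the genes themselves, SLC24A5 was most like TYR and TYRP1 (0.98 each) and OCA2 most like TYRP1 (0.97), whereas ATP7A had a negative r with all others. SLC24A4 had an r of 0.06 with SLC45A2 and 0.05 with TRPM1.

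The relatives of the 8 genes did not share their class pattern. Of 16 relatives (the remaining members of the SLC24, SLC45 and TRPM families with TPCN1, ATP7B and SLC8B1), 11 could be tested, and 2 were higher in melanocyte-like than in mesenchymal-like cells, TRPM7 and TRPM4, with 1 lower, SLC45A1. TRPM7, a widely expressed channel kinase, stood at 54.5, 50.9 and 44.1 CPM in melanocyte-like cells (log2 fold change over mesenchymal-like cells 0.95, edgeR adjusted p = 0.0159), and TRPM4 at 12.0, 9.32 and 9.86 CPM. Over neural-like cells TRPM4 passed (1.40, edgeR adjusted p = 0.0372) and TRPM7 did not (0.62, edgeR adjusted p = 0.0851). TPCN1 stood at 4.02, 3.04 and 4.69 CPM, and its log2 fold changes of -1.13 and -1.26 did not pass (edgeR adjusted p = 0.0726 and 0.0657). ATP7B, the copper pump of the liver, stood at 5.25, 4.52 and 4.18 CPM.

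In the copper handling list, 4 of 9 genes were higher in melanocyte-like than in mesenchymal-like cells and 3 of 9 higher than in neural-like cells, with median log2 fold changes of 0.59 and 0.47. ATOX1, the chaperone that hands copper to ATP7A, was higher than in mesenchymal-like cells by 1.58 (edgeR adjusted p = 0.00301). Its log2 fold change over neural-like cells, 0.75, did not pass (edgeR adjusted p = 0.0722). ATOX1 stood at 1634, 863 and 1084 CPM and, like ATP7A, was lower in D32 than in D23 (ratio 0.528). COX17, a chaperone for cytochrome oxidase, had a ratio of 0.545. COMMD1 and SCO2, which act in copper export and in mitochondria, had ratios of 1.60 and 1.42. The importer SLC31A1 stood at 24.5, 27.3 and 39.3 CPM.

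Of the 5 neighbouring lists, the proton pump that acidifies melanosomes and lysosomes had the largest share of higher genes: 13 of 18 V-ATPase genes were higher in melanocyte-like than in mesenchymal-like cells, but 7 of 18 were higher and 1, ATP6V1G2, lower than in neural-like cells. The most abundant, ATP6V1G1, stood at 1024, 1113 and 804 CPM, and its log2 fold change over mesenchymal-like cells was 1.31 (edgeR adjusted p = 0.00215). ATP6V0C and ATP6V0B were higher by 1.33 and 1.32, and ATP6V0E1 had a log2 fold change of 0.39 that did not pass (edgeR adjusted p = 0.0828). Of the endolysosomal channels and exchangers, 6 of 16 were higher than in mesenchymal-like cells and 3 higher with 1 lower than in neural-like cells; OSTM1 and CLCN7, which form a chloride exchanger, were higher than in mesenchymal-like cells by 1.98 and 2.19 (edgeR adjusted p = 0.00619 and 0.00153), TMEM165 was not (0.14, edgeR adjusted p = 0.722), and CLCN3 was higher by 0.98. Of the cystine and lysosomal solute carriers, 7 of 15 and 4 of 15 were higher. Those over mesenchymal-like cells included SLC3A2, the heavy chain of amino acid exchangers, which stood at 312, 746 and 852 CPM, and SPNS1, MFSD1 and SLC17A5. Over neural-like cells CLCN7, SLC3A2 and SLC17A5 passed too (log2 fold changes 1.51, 1.68 and 0.77, edgeR adjusted p = 0.00848, 0.013 and 0.0295). OSTM1, CLCN3, SPNS1 and MFSD1 did not (0.90, 0.69, 0.73 and 0.58, edgeR adjusted p = 0.114, 0.0832, 0.125 and 0.115).

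Between D32 and D44 the neighbours of the transport genes moved little. The median ratio was 0.954 for the V-ATPase, 0.942 for the endolysosomal channels and exchangers, 1.03 for the cystine and lysosomal carriers and 0.995 for the copper list, beside 1.12 for the 8 genes and 0.983 for all genes. Among them 2 genes were at least 2-fold higher in D44; these and TRPM3 are named here after their values were seen. MCOLN3, an endolysosomal calcium channel whose mouse mutants have coat colour defects, went from 0.539 to 4.59 CPM (119 and 1197 UMIs), and its difference between melanocyte-like and mesenchymal-like cells did not pass the test (log2 fold change -1.71, edgeR adjusted p = 0.259), and SLC45A3, a relative of SLC45A2, from 1.66 to 3.50 CPM. TRPM3, a relative of TRPM1 and 1.48 CPM in D32, was at 0.496 of that level in D44.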

How the data were processed

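The 3 droplet libraries, 1 per day, were analysed as matrices of raw UMI counts per gene and barcode that the authors deposited. Per the submitters' processing notes and the methods, they were made with Cell Ranger 6.1.2 on hg38; the annotation release is not given in the sources used here, and the counts are not normalized. The members and gene lists were chosen with earlier results of these data known.

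Cells were filtered as in the methods (D23: 1000 to 7000 genes, 500 to 50000 UMIs; D32 and D44: 3000 to 9000 genes, 500 to 100000 UMIs; mitochondrial UMIs below 10%). Counts were scaled to 10000 per cell and logged; 3000 variable genes, without the listed genes, gave 50 principal components, corrected for the library by a Harmony-type method and clustered (Louvain, 20 neighbours, resolution 0.4, Scanpy 1.11.5). A cluster was named from fixed markers where its leading class was at least 0.25 log2 units above the next, a limit set after seeing the clusters. Called doublets (1.45%, 7.67% and 6.32% of cells; in D44 by the expected share, since the automatic threshold of Scrublet marked almost no cells) were kept. Class sums of at least 10 cells (8 sums) were tested with edgeR 4.0.16 (TMM, filterByExpr, quasi-likelihood, library as block, Benjamini-Hochberg over all genes) in R 4.3.3; SEs are the log2 fold change over the root of its F. The library pairs the sums because its classes come from the same droplets. The test was checked on simulated counts. The named genes are all 8 members, the tyrosinase family, up to 4 genes per other list with the highest D44 level, and the 3 most alike per member among genes of at least 10 CPM. Alternatives included DESeq2 1.42.0, and the classes without the marker limit were added after seeing the data. In whole libraries a gene with no UMI could lie as high as 3 UMIs, or 0.0112 to 0.0602 CPM. In D23, 177 cells under 5000 UMIs were left out of thinned values.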

Additional observations from a re-analysis of the deposited data

Results flagged for a closer look

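The direction along the maturation score differed between libraries for 3 genes, by counting intervals on opposite sides of 1; these differences were not tested, since each library is 1 sample. SLC24A4 had a ratio of highest to lowest bin of 0.815 in D23, and its D32 and D44 ratios were 1.33 and 0.354. For ATP7A the D23, D32 and D44 ratios were 1.20, 0.780 and 0.893, and for MFSD12 they were 1.13, 0.929 and 0.816. The D44 ratio of SLC24A4 stayed between 0.302 and 0.478 with a score without PMEL and MLANA, in 10 bins, on thinned counts and in cells with no proliferation UMI, while that of ATP7A in D44 ranged from 0.635 to 0.999 over the same alternatives.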

How the results depend on the processing

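The 8 genes higher than in mesenchymal-like cells became 7 with 10% of UMIs subtracted as free RNA or with no correction for the library, where OCA2 was lost, and 6 with all cells of a cluster kept, where SLC24A4 and MFSD12 were; leaving out a library gave 7 to 8. Over neural-like cells 7 became 6 to 8, and stayed at 7 without D44. Without D23, without D32 or with no correction for the library, only 1 neural-like sum was tested. Calls and counts over neural-like cells in those fits, given here and above, have no replicate of that class. With free RNA subtracted, several sums were left at 0 and the fitted log2 fold changes of TRPM1, MFSD12, SLC24A5, SLC45A2 and SLC24A4 were 9.05 to 20.2, which depend on the prior count. OCA2 passed in 10 of 13 alternatives over mesenchymal-like and in 4 of 13 over neural-like cells (adjusted p up to 0.141 and 0.886), SLC24A4 in 12 and 11 (up to 0.267 and 0.304), and with no replicate block ATP7A over neural-like cells was lost (edgeR adjusted p = 0.0966). Genes higher over mesenchymal-like and over neural-like cells, 1451 and 1377, became 2349 and 2326 with no filter, 648 and 654 with no replicate block, 938 and 433 with no correction for the library and 589 and 606 with all cells of a cluster kept, and over neural-like cells 908 with free RNA subtracted; without 1 library they ranged from 792 (without D32; 933 without D44) to 1399 and from 676 (without D32; 900 without D23) to 1259. The 2 genes at least 2-fold higher in D44 became 1 without cycling cells, as SLC24A4 was at 1.96. The 3 genes higher in D32 than in D23 became 6 under TMM. By value alone 5 genes passed 1.5-fold along the score in every library, OCA2 in D23 on 1 against 6 UMIs; these became 3 with a score without PMEL and MLANA, as OCA2 in D23 was at 1.16 and SLC24A5 in D32 at 1.42. No direction of a called value reversed. Depth limits OCA2 in D23 (33 UMIs) and every gene in the 13 mesenchymal-like cells of D44.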
